A study of Mus musculus with 32 samples.

Results

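The 36 genes described here work in protein folding inside the endoplasmic reticulum (ER) and in the unfolded protein response, the pathway that senses unfolded protein and adjusts the folding machinery. They are defined by a list of 36 gene symbols, and every array probe annotated to exactly 1 of these symbols was taken. All 36 were measured, by 63 probes of which 62 passed a filter on dim probes, and they stand among 17145 genes tested in the same fit. Where several probes of a gene passed, the brightest stands for the gene. No member was below the dim limit on all 4 arrays of any group.

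Total RNA of whole uteri from female CD-1 mice was collected on postnatal day 5 and hybridised to 32 single-colour arrays, 4 biological replicates in each of 8 groups. The study asks how conditional deletion (cKO) of Esr1, Foxa2 or Foxo1 in the uterus alters the response to diethylstilbestrol (DES), a synthetic estrogen. Estrogen receptor alpha is the product of Esr1, and the products of Foxa2 and Foxo1 are transcription factors of the forkhead family. The groups were DES-treated Esr1 cKO and DES-treated Esr1 wild type (WT), vehicle-treated Esr1 cKO and vehicle-treated Esr1 WT, DES-treated Foxa2 cKO and DES-treated Foxa2 WT, and DES-treated Foxo1 cKO and DES-treated Foxo1 WT. The Foxa2 and Foxo1 lines were analysed here under DES only. The Cre driver, the DES dose, the days of dosing and any sharing of litters were not given in the sources used here.

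Proteins bound for the cell surface or for secretion enter the ER through a translocon, fold with the help of chaperones and disulfide isomerases, and are sent to degradation if they fail. Unfolded protein activates the sensors IRE1 (gene Ern1), PERK (gene Eif2ak3) and ATF6. IRE1 splices the Xbp1 transcript, PERK favours translation of ATF4, and ATF6 is cleaved to release a transcription factor, and together these raise chaperones, degradation factors and, through ATF4, amino acid genes and the pro-apoptotic factor CHOP (gene Ddit3). Secretory epithelia use the same genes to build export capacity outside acute stress. The arrays measured transcript abundance, so splicing, phosphorylation and cleavage were not measured.

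ATF6 and XBP1 are known to act on the ER stress element, which reads CCAAT, any 9 bases, CCACG. RefSeq promoter windows of the GRCm38.p6 assembly, 250 bases before and 50 bases from the transcription start on, matched 31 of the 36 members by symbol. The element, searched on both strands, was held by 9 of these 31 members (29.0%), against 37 of all 27025 genes with a window (0.137%). The 10 sites lay between positions -212 and -26 from the start, and 6 of the 10 read on the strand of their gene. They are shown as a sequence feature held by part of the members. The list was chosen as genes of this response, so the high share follows in part from that choice and is no independent result. Capitals mark the fixed ends of the element.
Hspa5 at chr2:34772025-34772043 on the plus strand: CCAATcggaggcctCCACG
Hsp90b1 at chr10:86705533-86705551 on the plus strand: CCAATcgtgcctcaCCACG
Hsp90b1 at chr10:86705638-86705656 on the minus strand: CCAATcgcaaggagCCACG
Dnajc3 at chr14:118937827-118937845 on the plus strand: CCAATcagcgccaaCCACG
Syvn1 at chr19:6046532-6046550 on the plus strand: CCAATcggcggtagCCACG
Pdia6 at chr12:17266491-17266509 on the plus strand: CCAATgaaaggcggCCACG
Calr at chr8:84847075-84847093 on the plus strand: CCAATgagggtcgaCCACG
Canx at chr11:50325800-50325818 on the minus strand: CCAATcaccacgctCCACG
Creld2 at chr15:88819520-88819538 on the minus strand: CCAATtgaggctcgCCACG
Derl3 at chr10:75893242-75893260 on the minus strand: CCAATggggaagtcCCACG

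A related form, ER stress element II (ATTGG, any 1 base, CCACG), was held by Dnajb11 and Herpud1, 2 of 31 members (6.45%) against 12 of all genes (0.0444%). In Herpud1, whose product recruits the ER degradation complex, it lay 52 to 42 bases before the start, and in Dnajb11 it lay 7 to 17 bases after it.
Herpud1 at chr8:94386377-94386387 on the plus strand: ATTGGgCCACG
Dnajb11 at chr16:22857852-22857862 on the plus strand: ATTGGcCCACG
Neither form was found in the windows of Xbp1, Edem2, Trib3 or Creb3l4. The UPR element core TGACGTGG (0.714% of all genes) and the estrogen response element of GGTCA, any 3 bases, TGACC (0.0740%) were found in 0 of the 31 windows. The same held for the ATF4 element in the searched form TGATGNAAT (1.08%), whose last base was fixed as T. The windows of Asns, Chac1, Herpud1 and Trib3 hold sites that differ from this form only at that base, such as TGATGAAAC in Asns. Sites of that kind were not counted. These are matches of letters within 300 bases and not measured binding sites.

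The upstream stretches of Dnajc3 and Hspa5 are printed because both hold the ER stress element within 105 bases of the start and differed in the DES response described below. Dnajc3 encodes p58IPK, an inhibitor of PERK and a co-chaperone in the ER, and Hspa5 encodes BiP, the main ER chaperone of the HSP70 family. Capitals mark the element.
Dnajc3, chr14:118937682-118937931 on the plus strand: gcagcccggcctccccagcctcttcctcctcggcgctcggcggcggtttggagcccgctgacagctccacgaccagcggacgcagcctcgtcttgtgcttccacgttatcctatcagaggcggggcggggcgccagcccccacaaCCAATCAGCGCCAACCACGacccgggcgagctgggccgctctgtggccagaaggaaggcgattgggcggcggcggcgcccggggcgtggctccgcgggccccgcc
Hspa5, chr2:34771840-34772089 on the plus strand: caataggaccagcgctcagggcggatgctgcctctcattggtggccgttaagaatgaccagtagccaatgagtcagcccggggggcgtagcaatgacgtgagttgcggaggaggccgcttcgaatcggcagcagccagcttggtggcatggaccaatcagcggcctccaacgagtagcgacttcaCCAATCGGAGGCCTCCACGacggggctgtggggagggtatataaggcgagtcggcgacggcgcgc

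Levels are given as log2 intensity minus the 75th percentile of log2 intensities of the same array, so a level of 0 is the brightness of that percentile and a difference of 1 is a doubling. Levels of different genes come from different probes and are not set against each other. The 75th percentile itself lay between 697 and 1787 on 30 of the 32 arrays. DES-treated Foxa2 WT replicate 1 stood apart at 9024 and vehicle-treated Esr1 WT replicate 4 at 551, so the counts, and the values of members that gain a call or move most, are also given without both. The deleted genes checked the labels: Esr1 ranged from 0.09 to 0.46 in DES-treated Esr1 cKO uteri against 2.12 to 2.35 in DES-treated Esr1 WT uteri, Foxa2 from -0.29 to 0.36 in Foxa2 cKO against 1.47 to 3.58 in Foxa2 WT, and Foxo1 from 1.12 to 1.33 in Foxo1 cKO against 3.68 to 4.06 in Foxo1 WT. Under vehicle Esr1 ranged from 2.43 to 2.82 in cKO against 2.65 to 4.43 in WT, and that change (-0.74, adjusted p = 0.33) was not called.

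A single summary per array shows the pattern across all 8 groups. The median over the 36 members of the deviation from each gene's own mean over 32 arrays was between -0.58 and -0.35 in DES-treated Esr1 cKO uteri and between 0.01 and 0.15 in DES-treated Esr1 WT uteri. It was between -0.51 and -0.42 in vehicle-treated Esr1 cKO uteri and between -0.44 and -0.10 in vehicle-treated Esr1 WT uteri. In the Foxa2 and Foxo1 lines it was positive on all 16 arrays, from 0.08 to 0.52, in cKO and WT uteri alike. On this summary every DES-treated Esr1 cKO array lay below every other DES-treated array, and within or below the range of the vehicle-treated arrays.

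**Figure D1:**
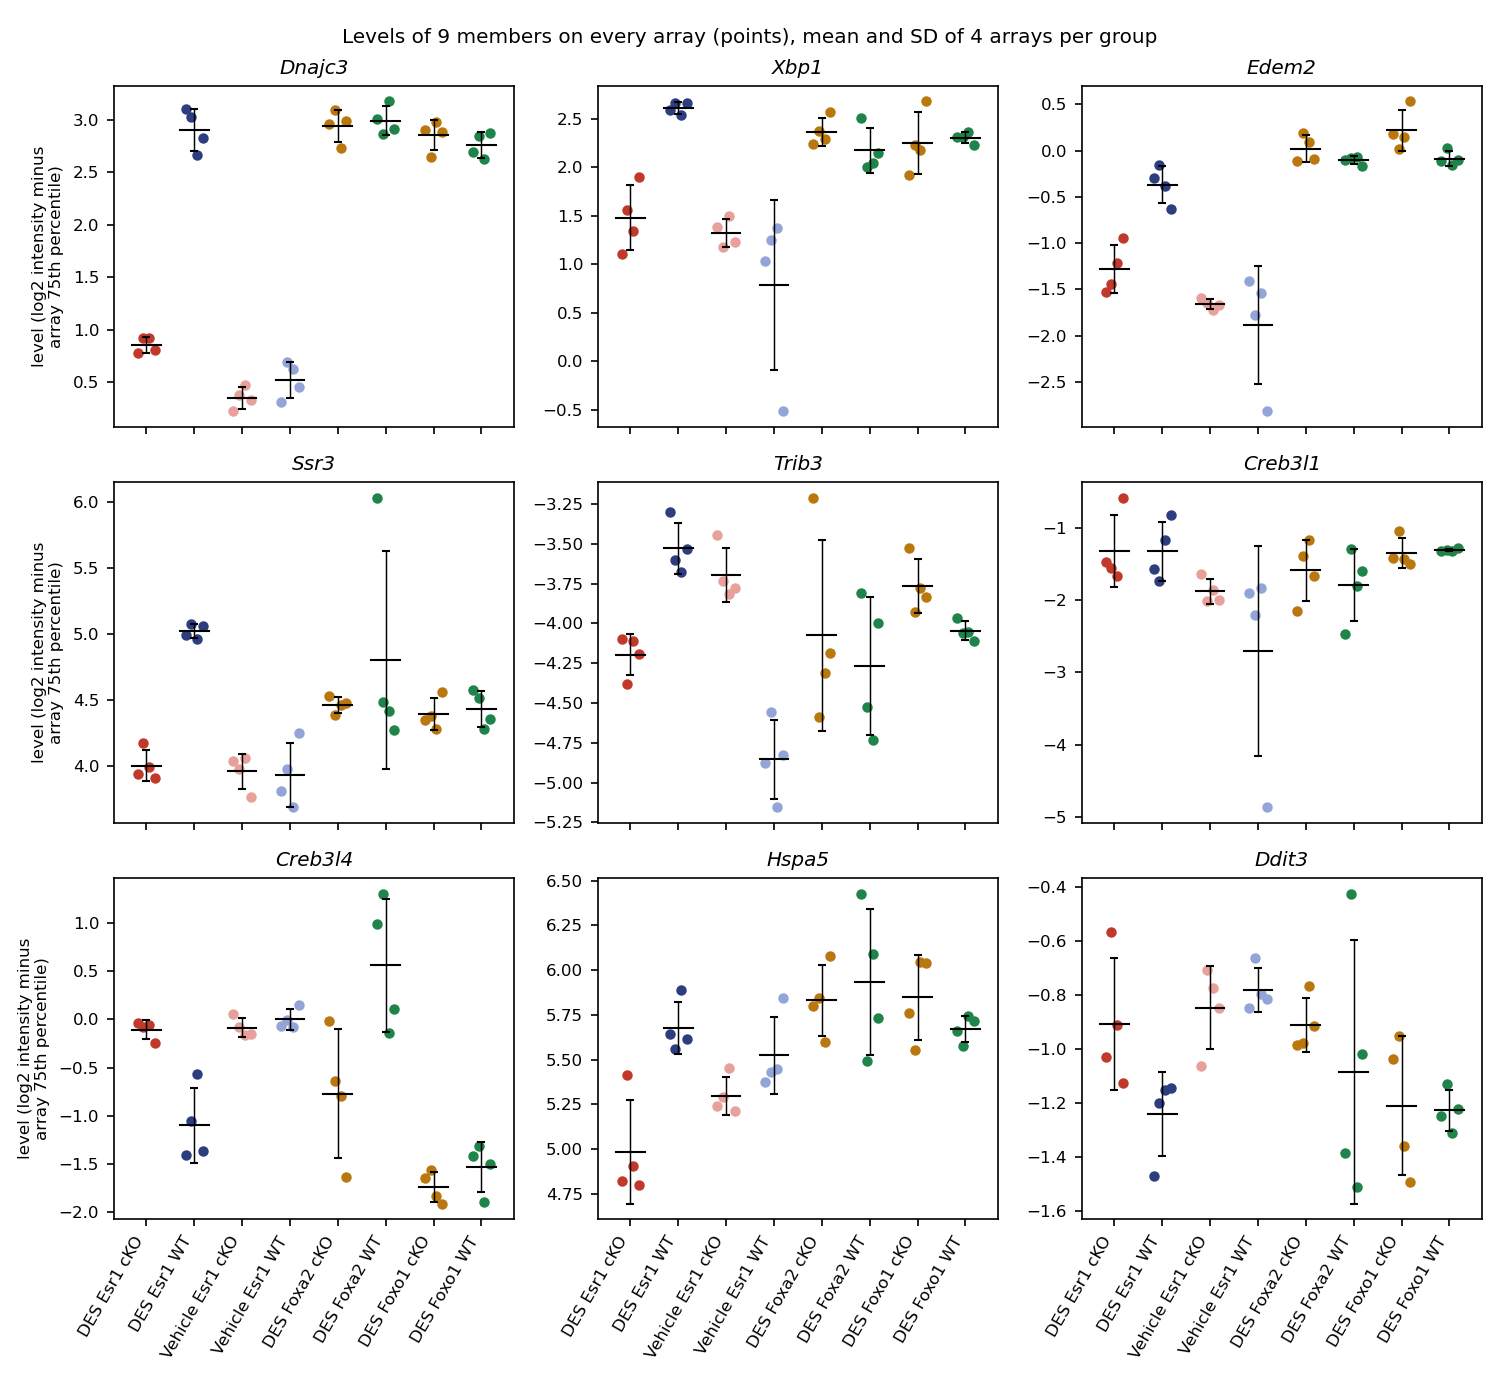
Levels (log2 intensity minus array 75th percentile, vertical axes that differ between panels) of 9 members on every array. Points are arrays, horizontal lines are group means and bars are SD over 4 arrays; Dnajc3 lies near 0.85 in DES-treated Esr1 cKO uteri, near 2.90 in DES-treated Esr1 WT uteri and below 0.70 in both vehicle groups.

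DES raised 19 of the 36 members in Esr1 WT uteri and lowered 2, while 15 were not called. Calls are those with limma's adjusted p below 0.05, after Benjamini-Hochberg adjustment over all 17145 genes. Of all genes 21.5% were called higher and 30.3% lower, so the members' share called higher (52.8%) was above the background share and their share called lower (5.56%) below it. The median change of the members was 0.44 on the log2 scale, against -0.16 over all genes. The arrays of the 2 groups did not overlap for 19 members (50.5% of all genes). In whole-uterus RNA, more cells of a type and more RNA per cell cannot be told apart. With both doubted arrays left out, 28 members were called higher (background 27.4%) and 2 lower (background 35.8%).

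Markers of simple epithelium moved with this result. Of 19 such markers tested, 17 were called higher and 1 lower with DES in Esr1 WT uteri, and their summed level ran from 8.85 to 9.19 in the DES group against 7.40 to 8.18 in the vehicle group. Leukocyte markers were called higher for 8 of 12 and lower for 2, with summed levels of 5.00 to 5.58 under DES against 3.64 to 4.44 under vehicle. Smooth muscle markers fell for 8 of 10, endothelial markers for 6 of 8 and proliferation markers for 12 of 13. Of 8 markers of plasma cells and B cells, which carry large amounts of ER, 1 was called higher and 3 lower, and Irf4 was below the dim limit on all 4 arrays of both groups. Ovary and oocyte markers had summed levels of 1.08 to 1.72 under DES against -0.05 to 0.47 under vehicle, with 2 of 8 called higher and 3 lower. The part of these cell types in the members' changes was not tested.

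Dnajc3 changed most. Its level was 3.10, 3.03, 2.66 and 2.83 in DES-treated Esr1 WT uteri against 0.31, 0.69, 0.62 and 0.46 in vehicle-treated Esr1 WT uteri. Every DES array lay above every vehicle array, and the change was 5.22-fold (2.38 ± 0.12 on the log2 scale, SE, adjusted p = 2.7e-15). Across the alternative settings the log2 change ran from 1.72 to 2.63, and the call was kept at each. The other J proteins, which hand clients to BiP, also rose: Dnajb9 (ERdj4) by 0.85 ± 0.14 (adjusted p = 8.3e-06) and Dnajb11 (ERdj3) by 0.41 ± 0.14 (adjusted p = 0.0174). The Dnajb11 call was lost when DES-treated Esr1 WT replicate 1 was left out.

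Among the sensors, Ern1 stood at -1.46, -1.48, -1.86 and -1.75 in DES-treated Esr1 WT uteri against -2.59, -2.61, -3.32 and -1.89 in vehicle-treated ones. The groups did not overlap, with vehicle replicate 4 close to the DES arrays, and Ern1 rose by 0.97 ± 0.19 (adjusted p = 1.3e-04). Eif2ak3 stood at 0.53, 0.60, 0.15 and 0.44 under DES against -0.18, -0.36, -0.10 and -0.63 under vehicle (0.75 ± 0.18, adjusted p = 0.00111). These values are from the brighter of its 2 probes; the other was called the opposite way (-1.57), so the direction of Eif2ak3 is uncertain in every comparison. Atf6 stood at 0.51 ± 0.11 under DES and 0.12 ± 0.59 under vehicle (SD, n = 4 each) and was not called (adjusted p = 0.215). Its change was 0.68 ± 0.09 (adjusted p = 2.8e-07) without both doubted arrays; vehicle replicate 4 lay at 0.99 and the other vehicle arrays between -0.23 and -0.13.

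Xbp1, the factor that IRE1 activates, stood at 2.59, 2.66, 2.54 and 2.66 in DES-treated Esr1 WT uteri against 1.03, 1.25, 1.38 and -0.52 in vehicle-treated ones. The DES arrays were all above the vehicle arrays and the change was 3.55-fold (1.83 ± 0.26, adjusted p = 1.1e-06). It was 1.39 ± 0.15 without both doubted arrays. Atf4, the factor downstream of PERK, stood at 1.58, 1.34, 1.42 and 1.36 under DES against 1.13, 1.04, 0.85 and 0.49 under vehicle, and rose by 0.55 ± 0.17 (adjusted p = 0.0072). The groups did not overlap. Ddit3, which encodes CHOP, moved the other way, at -1.47, -1.20, -1.15 and -1.15 under DES against -0.85, -0.67, -0.80 and -0.81 under vehicle. All 4 DES arrays lay below all vehicle arrays, and Ddit3 fell by 0.46 on the log2 scale (SE 0.17, adjusted p = 0.0259). That call was lost when either DES replicate 1 or vehicle replicate 2 was left out, and with scaling to the array median. Under that scaling the median of all genes is 0.09 in place of -0.16 in this comparison.

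The membrane-bound factors of the CREB3 family, which like ATF6 are released by cleavage, went in opposite directions. Creb3l1 (OASIS) stood at -1.56, -1.74, -1.17 and -0.82 in DES-treated Esr1 WT uteri against -1.90, -2.20, -1.83 and -4.87 in vehicle-treated ones. The rise of 1.38 ± 0.42 (adjusted p = 0.00708) rested in part on vehicle replicate 4 and was 0.65 ± 0.24 (adjusted p = 0.0184) without both doubted arrays. Creb3l4 stood at -1.40, -1.05, -0.57 and -1.37 under DES against -0.07, -0.01, -0.08 and 0.15 under vehicle. All DES arrays were below all vehicle arrays, and the change was 2.14-fold lower (-1.10 ± 0.27, adjusted p = 0.00116).

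Of the 8 chaperones and their partners, Calr, Sdf2l1 and Manf rose and none was called lower. Calr, the lectin chaperone calreticulin, rose by 0.53 ± 0.18 (adjusted p = 0.0163). Sdf2l1, a partner of the ER J proteins, stood at 1.40, 1.38, 1.40 and 1.20 under DES against 0.41, 0.45, 0.59 and 0.93 under vehicle and rose by 0.75 ± 0.28 (adjusted p = 0.0294). Manf, a secreted ER stress protein that binds BiP, stood at 3.87, 3.52, 3.97 and 3.59 under DES against 2.71, 2.97, 3.12 and 3.20 under vehicle and rose by 0.74 ± 0.21 (adjusted p = 0.00451). Calr lost its call without vehicle replicate 1, and Sdf2l1 without any of DES replicates 1, 2 or 3 or vehicle replicates 1 or 2.

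Hspa5, the classical reporter of this response, stood at 5.64, 5.56, 5.89 and 5.62 in DES-treated Esr1 WT uteri against 5.37, 5.43, 5.45 and 5.84 in vehicle-treated ones. The groups overlapped through vehicle replicate 4, and the change of 0.15 ± 0.17 was not called (adjusted p = 0.48, and 0.136 for 0.26 ± 0.15 without both doubted arrays). Hsp90b1 (GRP94) changed by -0.26, Canx (calnexin) by -0.12, Hyou1 (GRP170) by 0.24 and Creld2 by 0.39, none of them called. When both doubted arrays were left out, Hyou1 (0.61 ± 0.16, adjusted p = 0.00228) and Creld2 (0.50 ± 0.17, adjusted p = 0.014) were called, while Hsp90b1 (0.06) and Canx (0.07) were again not called. The 3 probes of Canx ran from -0.12, at the brightest, to 0.52, and 1 was called higher.

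Of the disulfide isomerases, Pdia4 (ERp72) and P4hb (PDI) were called, at 0.48 ± 0.20 (adjusted p = 0.0475) and 0.51 ± 0.20 (adjusted p = 0.0361). Both calls were lost on leaving out any of DES replicates 1, 2 or 3 or vehicle replicates 1, 2 or 3. Pdia3 (ERp57) changed by 0.13 and was not called, but by 0.37 ± 0.14 (adjusted p = 0.0221) without both doubted arrays. Pdia6 changed by -0.06 at its brightest probe, while 1 of its 4 probes was called higher and 1 lower, from -1.67 to 0.99.

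In ER-associated degradation, Edem2, which trims mannose from misfolded glycoproteins, stood at -0.29, -0.16, -0.38 and -0.63 in DES-treated Esr1 WT uteri against -1.41, -1.78, -1.54 and -2.82 in vehicle-treated ones. The groups did not overlap and Edem2 was 2.87-fold higher (1.52 ± 0.20, adjusted p = 3.1e-07, and 1.21 ± 0.13 without both doubted arrays). Sel1l, the adaptor of the ubiquitin ligase HRD1, rose by 0.48 ± 0.14 (adjusted p = 0.00626). Syvn1, which encodes HRD1 itself, changed by 0.22, Edem1 by 0.25, Herpud1 by 0.32 and Derl3 by -0.02, and these were not called. With both doubted arrays left out, Syvn1 (0.38 ± 0.11, adjusted p = 0.00311), Edem1 (0.26 ± 0.10, adjusted p = 0.0307) and Herpud1 (0.37 ± 0.14, adjusted p = 0.0245) were called higher. The probes of Syvn1 and Edem1 differed in size, with changes of up to 1.36 for Syvn1 and 1.80 for Edem1, and 1 probe of each was called higher.

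At the translocon, Ssr3, a subunit of the translocon-associated protein complex, stood at 4.99, 5.08, 4.96 and 5.06 under DES against 3.81, 3.98, 3.68 and 4.25 under vehicle. The groups were well separated and Ssr3 was 2.13-fold higher (1.09 ± 0.23, adjusted p = 2.0e-04). Sec61a1, the pore subunit, rose by 0.47 ± 0.18 (adjusted p = 0.0335), a call that was lost without DES replicates 1 or 2 or vehicle replicates 1, 2 or 3. Ssr1 (0.33) and Sec61b (0.40) were not called, but both were without the doubted arrays, Ssr1 at 0.35 ± 0.12 (adjusted p = 0.0141) and Sec61b at 0.77 ± 0.13 (adjusted p = 1.4e-05).

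Of the 3 members grouped here as targets of ATF4, 2 rose. Ddit3, which also lies downstream of ATF4 and is grouped with the transcription factors, fell as given above. Trib3, a pseudokinase, stood at -3.30, -3.60, -3.68 and -3.53 in DES-treated Esr1 WT uteri against -4.88, -4.55, -5.16 and -4.83 in vehicle-treated ones, 2.51-fold higher without overlap (1.33 ± 0.21, adjusted p = 8.1e-06). Chac1, which degrades glutathione, rose by 0.72 ± 0.18 (adjusted p = 0.00134), and its arrays overlapped. Asns, asparagine synthetase, changed by -0.22 (adjusted p = 0.624).

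**Figure D2:**
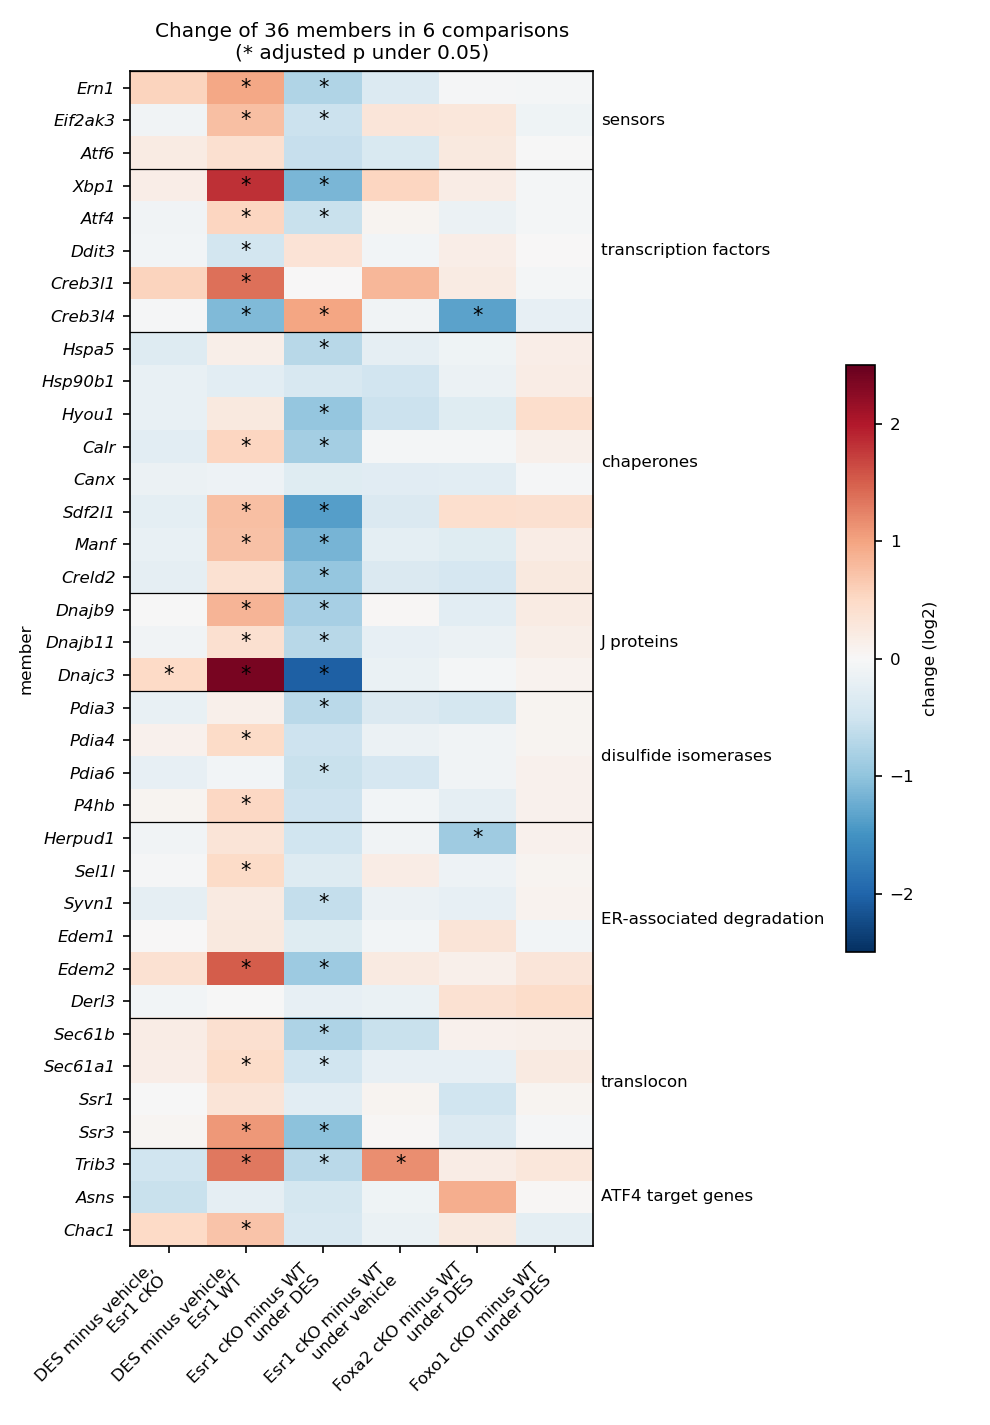
Change (log2, colour scale) of each of the 36 members, in rows grouped by role, in 6 comparisons (columns). Asterisks mark an adjusted p under 0.05: 21 members under DES against vehicle in Esr1 WT uteri, 1 in Esr1 cKO uteri, 22 between DES-treated Esr1 cKO and WT uteri, 1 under vehicle, 2 for Foxa2 and 0 for Foxo1.

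In Esr1 cKO uteri 1 of the 36 members was called between DES and vehicle, against 8.98% of all genes. Dnajc3 stood at 0.77, 0.92, 0.92 and 0.81 in DES-treated Esr1 cKO uteri against 0.22, 0.38, 0.47 and 0.33 in vehicle-treated Esr1 cKO uteri, a rise without overlap of 0.50 ± 0.12 (adjusted p = 0.00578). The call was lost when the probes of Dnajc3 were averaged (adjusted p = 0.394). The median change of the members was -0.06, against -0.04 over all genes. Xbp1 stood at 1.11, 1.56, 1.35 and 1.89 under DES against 1.38, 1.17, 1.5 and 1.23 under vehicle, and the groups overlapped (0.16 ± 0.26, adjusted p = 0.853). Atf4 stood at 0.79, 0.81, 0.95 and 0.93 under DES against 0.99, 0.96, 1.01 and 0.85 under vehicle (-0.08 ± 0.17, adjusted p = 0.892).

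Hspa5 in Esr1 cKO uteri stood at 4.82, 5.41, 4.90 and 4.80 under DES against 5.24, 5.29, 5.45 and 5.21 under vehicle, with DES replicate 2 above 3 of the 4 vehicle arrays (-0.31 ± 0.17, adjusted p = 0.334). Ddit3 stood at -1.03, -0.57, -0.91 and -1.13 under DES against -1.06, -0.71, -0.78 and -0.85 under vehicle (-0.06 ± 0.17, adjusted p = 0.928). Ern1 (0.55 ± 0.19, adjusted p = 0.0728) and Chac1 (0.49 ± 0.18, adjusted p = 0.0892) did not overlap between the groups and were not called. Without both doubted arrays, neither of which belongs to these groups but both of which enter the shared variance, 4 members were called higher (Dnajc3, Ern1, Edem2 and Chac1) and Asns lower (background 20.7%). Simple epithelium markers were called higher for 7 of 19 in Esr1 cKO uteri and lower for 0, and leukocyte markers higher for 5 of 12 and lower for 0.

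The difference between the DES changes in cKO and WT uteri was tested by the interaction of genotype and DES. It was called for 11 of 36 members (30.6%), near the 27.3% of all genes. The change was lower in cKO uteri for 10 of these members and higher for Creb3l4. Of all 17145 genes, 2045 were called with a lower change and 2642 with a higher one. The median interaction of the members was -0.44, against 0.12 over all genes, and 33 of the 36 values were negative. Dnajc3 changed by 0.50 in cKO and 2.38 in WT uteri, an interaction of -1.88 ± 0.17 (adjusted p = 6.0e-09). Trib3 changed by -0.50 in cKO and 1.33 in WT uteri (interaction -1.83 ± 0.30, adjusted p = 4.8e-05), and Xbp1 by 0.16 in cKO and 1.83 in WT uteri (interaction -1.67 ± 0.36, adjusted p = 0.00107). Edem2 (-1.15), Ssr3 (-1.05), Manf (-0.91), Dnajb9 (-0.85), Eif2ak3 (-0.85), Calr (-0.80) and Atf4 (-0.63) were the other negative calls. Creb3l4 changed by -0.02 in cKO and -1.10 in WT uteri (interaction 1.08 ± 0.38, adjusted p = 0.035).

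Of the 21 members called with DES in WT uteri, 11 were called in the interaction and 10 were not, among them Ern1 (-0.41), Chac1 (-0.23), Creb3l1 (-0.82), Sdf2l1 (-1.0) and Ddit3 (0.40). Leaving out both doubted arrays, the Creb3l1 interaction was -0.09 ± 0.32, and those of Ern1 (-0.65 ± 0.22, adjusted p = 0.0187) and Sdf2l1 (-1.11 ± 0.35, adjusted p = 0.0132) were called. Leaving out both gave 22 members with a lower change in cKO uteri and 1 with a higher one (background 42.4%, both directions together). Leaving out Esr1 arrays 1 at a time gave 8 to 14 calls, with no share of all genes set beside them. The Atf4 interaction was lost on leaving out any 1 Esr1 array other than vehicle-treated WT replicates 1 and 2. The Creb3l4 interaction was lost without DES-treated cKO replicate 1, 2 or 3, DES-treated WT replicate 1 or 4, vehicle-treated cKO replicate 2, 3 or 4 or vehicle-treated WT replicate 4. Calr lost its interaction without DES-treated cKO replicate 1 or vehicle-treated WT replicate 1, and Manf without the same WT array.

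**Figure D3:**
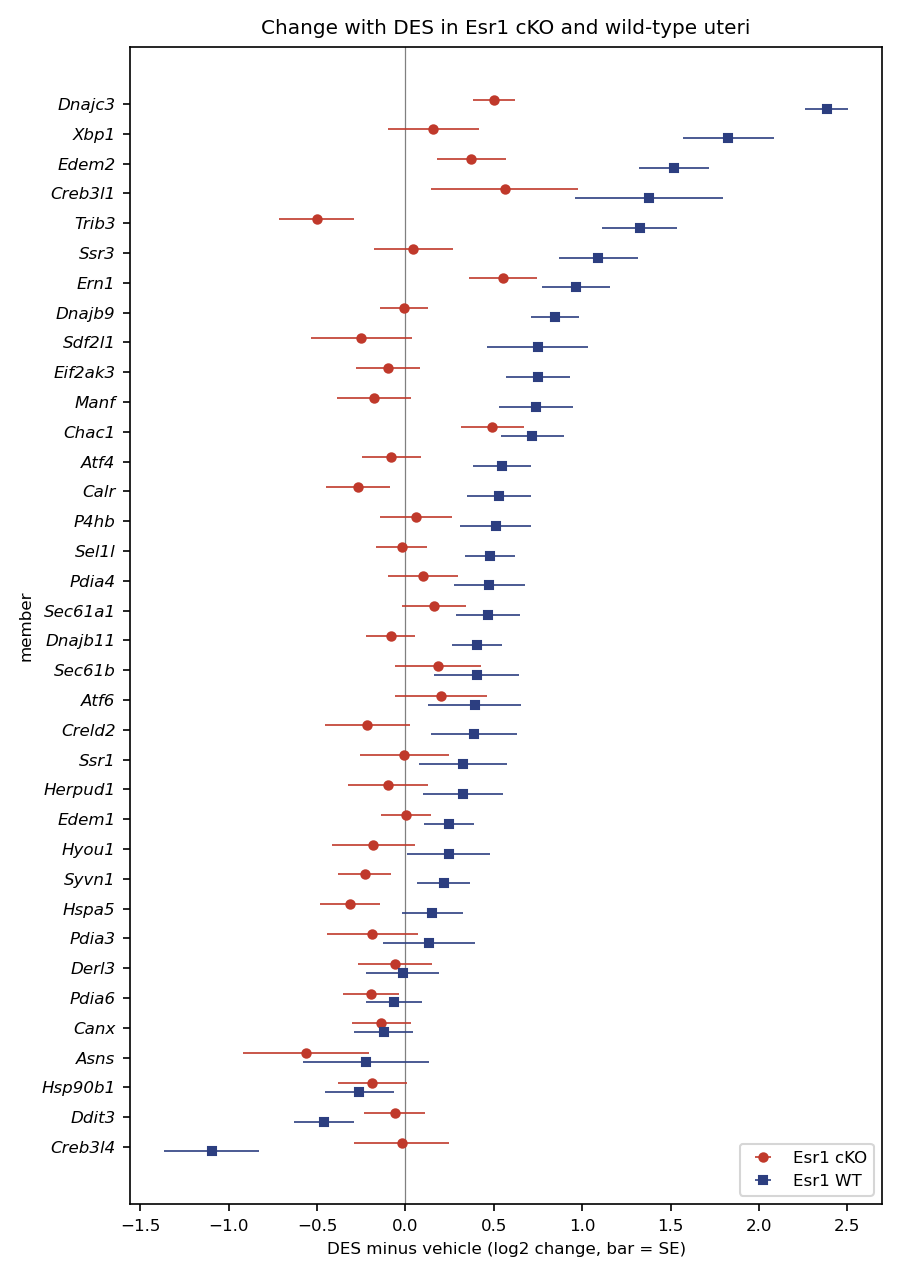
Change with DES (DES minus vehicle, log2, horizontal axis) of the 36 members in Esr1 cKO uteri (red circles) and Esr1 WT uteri (blue squares), ordered by the change in WT uteri; bars are the SE of the fit. The cKO values lie between -0.56 and 0.56 and the WT values between -1.10 and 2.38.

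Under vehicle, deletion of Esr1 changed 1 of the 36 members, against 7.48% of all genes. Trib3 stood at -3.45, -3.74, -3.81 and -3.78 in vehicle-treated Esr1 cKO uteri against -4.88, -4.55, -5.16 and -4.83 in vehicle-treated Esr1 WT uteri. The groups did not overlap and Trib3 was 2.24-fold higher in cKO uteri (1.16 ± 0.21, adjusted p = 4.3e-04). The probe is dim, and with a filter at the array median it was not tested and 0 members were called. Xbp1 (0.54 ± 0.26, adjusted p = 0.249), Atf4 (0.07), Ddit3 (-0.07) and Hspa5 (-0.23) were not called. With both doubted arrays left out, which include WT replicate 4, the change was 0.10 ± 0.15 for Xbp1 (adjusted p = 0.84) and -0.12 for Hspa5. The median change of the members was -0.14, against -0.07 over all genes.

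Under DES, 21 of the 36 members were lower in Esr1 cKO than in Esr1 WT uteri and 1 was higher, against 13.9% and 16.6% of all genes. The median change of the members was -0.56, against 0.03 over all genes, and 33 of the 36 values were negative. The arrays of the 2 groups did not overlap for 30 members (47.0% of all genes). With both doubted arrays left out, 29 members were called lower (background 21.8%) and 1 higher (background 26.2%). Simple epithelium markers moved with this result too, with 15 of 19 lower and 1 higher in cKO uteri and summed levels of 7.76 to 8.19 in cKO against 8.85 to 9.19 in WT uteri. Proliferation markers were called higher in cKO uteri for 11 of 13 and smooth muscle markers for 5 of 10, and the summed level of ovary and oocyte markers was 0.09 to 0.27 in cKO against 1.08 to 1.72 in WT uteri, with 0 of 8 called higher and 1 lower. The part of these cells in the members' changes was not tested.

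Dnajc3 again differed most, at 0.77, 0.92, 0.92 and 0.81 in DES-treated Esr1 cKO uteri against 3.10, 3.03, 2.66 and 2.83 in DES-treated Esr1 WT uteri, 4.14-fold lower in cKO (-2.05 ± 0.12, adjusted p = 3.5e-13). The other J proteins fell as well, Dnajb9 by 0.82 (adjusted p = 2.7e-05) and Dnajb11 by 0.69 (adjusted p = 3.7e-04). Of the sensors, Ern1 fell by 0.75 (adjusted p = 0.00346) and Eif2ak3 by 0.53 at its brighter probe (adjusted p = 0.0256, and 0.453 with its probes averaged), while Atf6, without overlap at -0.06 ± 0.09 in cKO and 0.51 ± 0.11 in WT uteri (SD, n = 4 each), was not called (-0.57, adjusted p = 0.105). Without both doubted arrays Atf6 had the same change and an adjusted p of 2.4e-06.

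Xbp1 stood at 1.11, 1.56, 1.35 and 1.89 in DES-treated Esr1 cKO uteri against 2.59, 2.66, 2.54 and 2.66 in DES-treated Esr1 WT uteri. All cKO arrays lay below all WT arrays, a 2.19-fold lower level (-1.13 ± 0.26, adjusted p = 0.00105). Atf4 stood at 0.79, 0.81, 0.95 and 0.93 in cKO against 1.58, 1.34, 1.42 and 1.36 in WT uteri and fell by 0.55 (adjusted p = 0.0114). Ddit3 did not overlap between the groups but was not called (0.33 ± 0.17, adjusted p = 0.152), with cKO arrays at -1.03, -0.57, -0.91 and -1.13 and WT arrays at -1.47, -1.20, -1.15 and -1.15. Creb3l4 stood at -0.03, -0.08, -0.06 and -0.25 in cKO against -1.40, -1.05, -0.57 and -1.37 in WT uteri and was 1.99-fold higher in cKO (0.99 ± 0.27, adjusted p = 0.00524). Creb3l1 did not separate the groups (0.01 ± 0.42).

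Hspa5, which was not called with DES in WT uteri, was lower in cKO uteri under DES. It stood at 4.82, 5.41, 4.90 and 4.80 in DES-treated Esr1 cKO uteri against 5.64, 5.56, 5.89 and 5.62 in DES-treated Esr1 WT uteri, 1.62-fold lower without overlap (-0.69 ± 0.17, adjusted p = 0.00247). With quantile normalization its adjusted p was 0.162. Sdf2l1 stood at -0.43, 0.56, -0.25 and 0.02 in cKO against 1.40, 1.38, 1.40 and 1.20 in WT uteri, 2.58-fold lower (-1.37 ± 0.28, adjusted p = 4.4e-04). Manf stood at 2.53, 2.92, 2.42 and 2.45 in cKO against 3.87, 3.52, 3.97 and 3.59 in WT uteri, 2.23-fold lower (-1.16 ± 0.21, adjusted p = 9.2e-05). Both were lower on every cKO array.

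Creld2, a partner of the disulfide isomerases, stood at 3.03, 3.71, 3.14 and 2.84 in DES-treated Esr1 cKO against 4.25, 4.00, 4.4 and 3.90 in DES-treated Esr1 WT uteri and fell by 0.96 (adjusted p = 0.00294). Hyou1 fell by 0.96 (adjusted p = 0.00209) and Calr by 0.85 (adjusted p = 5.9e-04). Hsp90b1 (-0.40, adjusted p = 0.132) and Canx (-0.29, adjusted p = 0.201) were not called, but both were without the doubted arrays (adjusted p = 0.00619 for Hsp90b1 and 0.00348 for Canx). Of the isomerases, Pdia3 (-0.68, adjusted p = 0.0454) and Pdia6 (-0.56, adjusted p = 0.00798) were lower in cKO uteri. Pdia4 (-0.51, adjusted p = 0.0519) and P4hb (-0.52, adjusted p = 0.052) lay just past the threshold, and both were called without the doubted arrays (adjusted p = 0.0112 for Pdia4 and 7.7e-05 for P4hb). Pdia3 lost its call on leaving out any 1 of 7 of the 8 arrays, all but cKO replicate 2.

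In degradation, Edem2 fell by 0.92 (adjusted p = 6.0e-04) and Syvn1 by 0.60 (adjusted p = 0.00285), and Syvn1 lost its call when its probes were averaged (adjusted p = 0.073). Herpud1 (-0.50), Sel1l (-0.32), Edem1 (-0.31) and Derl3 (-0.20) were not called. Without both doubted arrays Herpud1 (adjusted p = 0.00229), Sel1l (adjusted p = 0.0269) and Edem1 (adjusted p = 0.00872) were called lower, and 1 of the 3 probes of Edem1 was called at -1.36. At the translocon, Ssr3 stood at 3.94, 4.17, 3.99 and 3.90 in cKO against 4.99, 5.08, 4.96 and 5.06 in WT uteri, 2.03-fold lower (-1.02 ± 0.23, adjusted p = 8.2e-04). Sec61b fell by 0.78 (adjusted p = 0.0148) and Sec61a1 by 0.50 (adjusted p = 0.0359), and Ssr1 (-0.27) was not called. Sec61b lost its call without cKO replicate 4, and Sec61a1 without any of WT replicates 1 or 2 or cKO replicates 1, 3 or 4. Trib3 fell by 0.67 (adjusted p = 0.0169), a call lost without WT replicate 1 or cKO replicate 2, and Asns (-0.44) and Chac1 (-0.40) were not called.

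Foxa2 deletion under DES changed 2 of the 36 members, both lower, against 2.21% of all genes. Herpud1 stood at 3.36, 2.91, 2.56 and 3.15 in DES-treated Foxa2 cKO uteri against 5.02, 3.40, 3.58 and 3.52 in DES-treated Foxa2 WT uteri. The groups did not overlap, the WT replicate at 5.02 was the doubted array, and Herpud1 was 1.84-fold lower in cKO (-0.88 ± 0.23, adjusted p = 0.0348). Without both doubted arrays the change was -0.50 ± 0.14 (adjusted p = 0.0451), and leaving out Foxa2 WT replicate 1 alone, or any of cKO replicates 2, 3 or 4, ended the call. Creb3l4 stood at -0.01, -0.64, -0.79 and -1.63 in cKO against 0.98, 1.30, -0.15 and 0.11 in WT uteri (-1.33 ± 0.27, adjusted p = 0.00484), and the groups overlapped. Neither was called with the 8 Foxa2 arrays fitted alone (adjusted p of 0.821 for Herpud1 and 0.769 for Creb3l4).

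Dnajc3 stood at 2.94 ± 0.15 in Foxa2 cKO and 2.99 ± 0.14 in Foxa2 WT uteri (SD, n = 4 each; change -0.05, adjusted p = 0.842). Xbp1 stood at 2.24, 2.37, 2.29 and 2.57 in Foxa2 cKO against 2.51, 2.00, 2.04 and 2.14 in Foxa2 WT uteri (0.19, adjusted p = 0.688). Hspa5 stood at 5.80, 5.84, 5.60 and 6.08 in Foxa2 cKO against 6.43, 5.49, 6.09 and 5.73 in Foxa2 WT uteri (-0.10, adjusted p = 0.752). These groups overlapped for all 3 genes. Atf4 (-0.15) and Ddit3 (0.17) were not called. Asns had the largest uncalled change (0.92, adjusted p = 0.188), with Foxa2 WT replicate 1 at 0.29 and the other WT arrays between 2.41 and 3.17. The Asns change was 0.29 ± 0.21 (adjusted p = 0.568) without both doubted arrays.

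Foxo1 deletion under DES changed 0 of the 36 members in limma, against 0.222% of all genes. That fit did not model the shared deviations of same-numbered Foxo1 arrays, which are described with the processing. At an unadjusted p below 0.05, which a share of 0.05 of tests passes when nothing differs, there was 1, Derl3. The share of all genes at that threshold was not computed. Derl3 stood at -0.96, -1.13, -0.83 and -0.92 in Foxo1 cKO against -1.51, -1.39, -1.37 and -1.40 in Foxo1 WT uteri (0.46 ± 0.21, not called). Its product takes part in ER-associated degradation, and its groups did not overlap. The median change of the members was 0.09, against 0.05 over all genes, and the changes lay between -0.24 for Chac1 and 0.46 for Derl3. Dnajc3 stood at 2.85 ± 0.15 in Foxo1 cKO and 2.76 ± 0.12 in Foxo1 WT uteri. Xbp1 stood at 1.92, 2.22, 2.17 and 2.68 in Foxo1 cKO against 2.32, 2.31, 2.36 and 2.23 in Foxo1 WT uteri. Hspa5 stood at 5.76, 5.55, 6.05 and 6.04 in Foxo1 cKO against 5.66, 5.58, 5.74 and 5.71 in Foxo1 WT uteri. Both pairs of groups overlapped.

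The deletion effects were compared directly within the DES-treated arrays. The Esr1 effect differed from the Foxa2 effect for 11 members (30.6%), against 18.4% of all genes. It was more negative for 10 members and more positive for Creb3l4, against 1586 and 1576 of all 17145 genes. The Esr1 effect differed from the Foxo1 effect for 17 members (47.2%), against 19.6% of all genes. It was more negative for 16 members and more positive for Creb3l4, against 1740 and 1625 of all genes. The Foxa2 and Foxo1 effects differed for 0 members in limma, against 0.957% of all genes. At an unadjusted p below 0.05 there were 4 (Creb3l4, Dnajb9, Herpud1 and Hyou1). A share of 0.05 of tests passes that threshold when nothing differs, and the share of all genes passing it was not computed. The comparisons with Esr1 share its arrays. Dnajc3 had an effect of -2.05 for Esr1, -0.05 for Foxa2 and 0.09 for Foxo1 (difference -2.0 ± 0.17 from Foxa2, adjusted p = 2.0e-09, and -2.14 ± 0.17 from Foxo1, adjusted p = 4.5e-10).

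Sdf2l1 had an effect of -1.37 for Esr1, 0.42 for Foxa2 and 0.39 for Foxo1, and both differences from Esr1 were called (-1.79 and -1.76). The Foxa2 effect on Sdf2l1 was 0.10 ± 0.26 without both doubted arrays. Xbp1 had -1.13 for Esr1, 0.19 for Foxa2 and -0.06 for Foxo1, and both differences were called (-1.33 and -1.08). The Xbp1 difference from Foxo1 lost its call with median scaling and on leaving out Esr1 cKO replicate 1 or 3, Esr1 WT replicate 1, 2 or 4, Foxo1 cKO replicate 4 or Foxo1 WT replicate 1, 2 or 4. Hspa5 had -0.69 for Esr1, -0.10 for Foxa2 and 0.18 for Foxo1, and only the difference from Foxo1 was called (-0.87, adjusted p = 0.0108), a call lost with median scaling and with quantile normalization. The number of calls against Foxa2 depended on single arrays. Without the doubted Foxa2 WT replicate 1 there were 18, without Esr1 WT replicate 1 there were 6 and without Esr1 cKO replicate 3 there were 7. Without Foxa2 cKO replicate 4 or Esr1 cKO replicate 1 there were 5. Shares of all genes are not set beside these single-array counts, so the counts do not describe the members apart from all genes. Without both doubted arrays 24 members were more negative and 1 more positive for Esr1 (background 33.8%, both directions together). The Foxo1 comparison then had 26 more negative and 1 more positive (background 37.4%, both directions together).

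Other genes of the same pathways, 190 in 9 lists that hold none of the 36 members, are given beside the shares of all genes, of which 21.5% were called higher and 30.3% lower with DES in Esr1 WT uteri. The list of further stress sensors and transcription factors had 10 of 19 higher and 3 lower with DES in Esr1 WT uteri. Bhlha15 (MIST1), a factor of professional secretory cells, rose by 5.29 in WT uteri and by 2.14 in cKO uteri, and Wfs1, an ER membrane protein, rose by 2.66 in WT uteri. Atf3, a stress factor downstream of ATF4, fell by 1.21. Signal peptide cleavage and translocation had 11 of 21 higher and 2 lower, led by Sec11c (3.11), a signal peptidase subunit, and Ssr4 (1.75). The further ER-associated degradation genes had 11 of 25 higher and 1 lower, led by Erlec1 (1.91), a lectin that reads trimmed glycans, and Marchf6 (1.41), a ubiquitin ligase of the ER membrane.

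N-glycosylation had 8 of 22 higher and 0 lower, led by Gfpt1 (1.21), which feeds the hexosamine pathway, and Ddost (0.98), a subunit of the oligosaccharyltransferase. ER to Golgi transport had 8 of 24 higher and 0 lower, led by Arfgap3 (0.98). Disulfide formation had 7 of 19 higher and 2 lower, with Agr2, the disulfide isomerase of mucus-secreting epithelia, up by 7.48 in WT and 2.44 in cKO uteri, Qsox1 up by 2.78 and Ero1a up by 2.29 in WT uteri. ER chaperones and prolyl isomerases had 3 of 20 higher, led by Fkbp11 (3.08), and 3 lower, so their share called higher was not above that of all genes. The same held for the next list. The ATF4-regulated amino acid and tRNA genes had 5 of 29 higher and 6 lower, with Cbs at 5.77 and Stc2 at 5.02 against Phgdh at -2.67 and Cth at -1.59. The stress apoptosis genes had 5 of 11 higher and 4 lower, from Gadd45a at 4.60 to Bbc3 at -1.91.

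Between DES-treated Esr1 cKO and WT uteri the same lists were called lower in cKO for 9 of 19 stress sensors and factors, 11 of 21 translocation genes, 10 of 25 degradation genes, 9 of 22 glycosylation genes, 8 of 19 disulfide genes (2 higher), 3 of 24 transport genes (1 higher) and 3 of 20 chaperones. Of all genes 13.9% were called lower and 16.6% higher, and the shares of the transport genes and the chaperones were close to the first of these. The amino acid and tRNA genes had 4 lower and 4 higher of 29, and the apoptosis genes 4 lower and 3 higher of 11. Agr2 fell by 5.15, Bhlha15 by 3.37, Fkbp11 by 2.82, Sec11c by 2.62 and Wfs1 by 2.51 in cKO uteri. Phgdh was 1.49 higher.

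**Figure D4:**
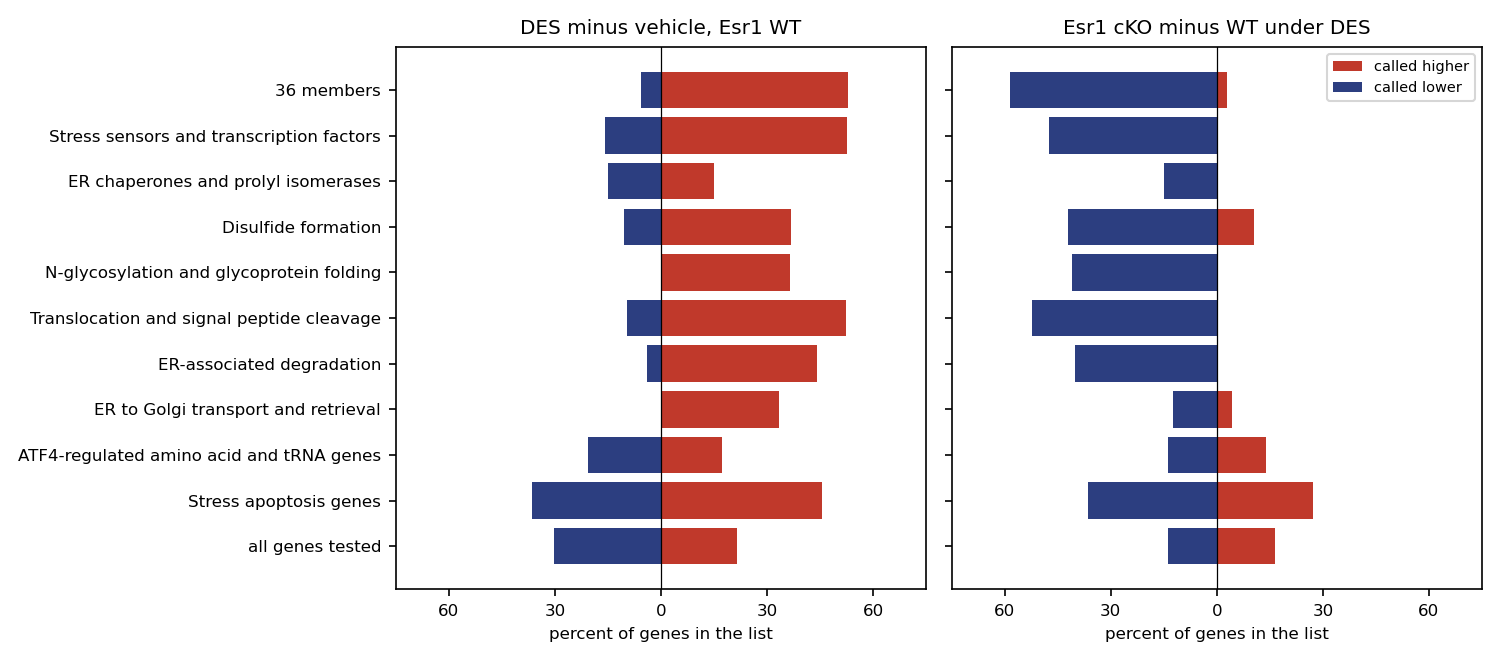
Share of genes called higher (red, right of 0) and lower (blue, left of 0) with DES against vehicle in Esr1 WT uteri (left panel) and in DES-treated Esr1 cKO against WT uteri (right panel), for the 36 members, 9 lists of other genes and all genes tested. The members have 52.8% higher and 5.56% lower in the left panel and 2.78% higher and 58.3% lower in the right panel.

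The 9 members whose windows hold the ER stress element were set beside the 22 with a window and without it. With DES in Esr1 WT uteri 2 of the 9 rose, Dnajc3 and Calr, and the median change was 0.15, against 14 higher and 2 lower of the 22 and a median of 0.49. Without both doubted arrays Creld2 (0.50 ± 0.17) and Syvn1 (0.38 ± 0.11) of the 9 were called higher as well. The remaining holders, Hspa5, Hsp90b1, Pdia6, Canx and Derl3, were again not called. Of the 22, Edem1, Herpud1, Pdia3, Sec61b and Ssr1 gained a call in that fit. Between DES-treated Esr1 cKO and WT uteri 6 of the 9 were lower, with a median of -0.60, against 12 lower and 1 higher of the 22 and a median of -0.54. These counts are a description of the listed genes without a test. The upstream stretches of Dnajc3 and Hspa5 printed above both hold the element, with changes of 2.38 and 0.15 with DES in WT uteri.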

How the data were processed

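The 32 single-colour Agilent arrays of uterine RNA were deposited as linear intensities. The submitters' processing notes name Agilent Feature Extraction 12 as the software; the background correction is not given in the sources used here. Deposited intensities ran from 1.87 to 922772. Of 45018 probes, 33653 had 1 gene symbol, 56 several and 11309 none in the platform annotation; 33517 were matched to RefSeq symbols through their gene identifiers.

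Intensities were taken as log2 minus the 75th percentile of their array. Probes above the 30th percentile of at least 4 arrays were kept (36657, of which 29367 with 1 symbol), and the brightest probe was used per gene. A mean per group was fitted over all 32 arrays with limma 3.58.1 in R 4.3.3 (24 residual degrees of freedom), with Benjamini-Hochberg adjustment over 17145 genes within each of 10 comparisons. The fit was tested on simulated data. The precision is limited by 4 arrays per group. The design text calls the replicates biological; it lists the Foxa2 and Foxo1 groups without DES, which the titles and treatment labels give.

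The members and the lists were chosen with earlier results of these data known. Values per array are given for up to 6 called, non-overlapping members per direction with the largest change and for Hspa5, Xbp1, Atf4 and Ddit3; array values of Ern1, Eif2ak3, Sdf2l1, Manf and others were added after their values were seen. Up to 3 called genes per direction are named from each further list. Same-numbered arrays deviated together in the Foxo1 comparison (correlations of 0.29 to 0.38 over genes, 4 of 4 best with their own number) and not in the others by the rule that every pair exceed 0.1. Alternatives covered scaling, probe filter, probe choice, variance model, array weights, a replicate block and single arrays left out. A block of replicates 1 and 2 against 3 and 4 and the estrogen response element search were added after the data were seen.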

Additional observations from a re-analysis of the deposited data

Results flagged for a closer look

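The change with DES differed between Esr1 cKO and Esr1 WT uteri, by the interaction term, for 11 members (30.6%), near the 27.3% of all genes. They were Dnajc3 (-1.88), Trib3 (-1.83), Xbp1 (-1.67), Edem2 (-1.15), Ssr3 (-1.05), Manf (-0.91), Dnajb9 (-0.85), Eif2ak3 (-0.85), Calr (-0.80), Atf4 (-0.63) and Creb3l4 (1.08), where a negative value is a lower change in cKO uteri. The Eif2ak3 call was lost with its probes averaged. The Atf4 call was lost at 17 and the Creb3l4 call at 10 of 27 other settings with the same threshold.

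Single arrays stood far from the other 3 of their group in 21 of 288 combinations of member and group, where chance gives about 1 in 20, or 14.4. Of these, 8 were in DES-treated Foxa2 WT replicate 1: Atf6 at -1.02 (others 0.64 to 0.70), Eif2ak3 at -1.02 (others -0.11 to -0.05), Herpud1 at 5.02 (others 3.40 to 3.58), Sel1l at 0.37 (others 0.09 to 0.12), Sec61b at 6.03 (others 6.88 to 7.0), Ssr1 at 5.98 (others 4.07 to 4.23), Ssr3 at 6.03 (others 4.27 to 4.49) and Derl3 at -2.73 (others -1.62 to -1.57). A further 6 were in vehicle-treated Esr1 WT replicate 4: Hspa5 at 5.84 (others 5.37 to 5.45), Atf6 at 0.99 (others -0.23 to -0.13), Dnajb11 at 3.32 (others 3.00 to 3.04), Hyou1 at 2.5 (others 0.97 to 1.13), Sec61b at 6.91 (others 5.41 to 5.46) and Creb3l1 at -4.87 (others -2.20 to -1.83). These arrays also had the highest and the lowest 75th percentile of intensity.

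The other 7 were spread over 7 arrays. Ddit3 stood at -1.47 in DES-treated Esr1 WT replicate 1 (others -1.20 to -1.15) and Sdf2l1 at 1.20 in replicate 4 of that group (others 1.38 to 1.40). Asns stood at 1.61 in DES-treated Esr1 cKO replicate 4 (others 2.29 to 2.38). In Foxo1 cKO uteri Pdia6 stood at 6.16 in replicate 3 (others 6.04 to 6.06) and Creb3l1 at -1.05 in replicate 2 (others -1.50 to -1.42). In Foxo1 WT uteri Dnajb9 stood at 0.35 in replicate 1 (others 0.79 to 0.82) and Chac1 at -1.02 in replicate 4 (others all at -0.83).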

How the results depend on the processing

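Counts of members called moved by over 1.5 times under these settings. With a 2-fold minimum they were 7 for DES in WT uteri (21 without it), 0 for DES in cKO uteri (1), 6 for the interaction (11), 5 for Esr1 deletion under DES (22), 1 for Foxa2 deletion (2), 5 for the Esr1 against the Foxa2 effect (11) and 9 for the Esr1 against the Foxo1 effect (17). In the same order of comparisons, array weights gave 11 for DES in cKO uteri, 26 for the interaction, 5 for Foxa2, 26 against the Foxa2 effect, 28 against the Foxo1 effect and 5 for the Foxa2 against the Foxo1 effect. Fitting only the compared groups gave 4 for DES in cKO uteri, 0 for Foxa2, 5 against the Foxa2 effect and 27 against the Foxo1 effect. Without both doubted arrays the counts were 5 for DES in cKO uteri, 23 for the interaction, 25 against the Foxa2 effect and 27 against the Foxo1 effect. An adjusted p under 0.01 left 5 for the interaction, 1 for Foxa2, 5 against the Foxa2 effect and 8 against the Foxo1 effect. A filter at the array median gave 0 for Esr1 deletion under vehicle, median scaling 1 for Foxa2 and 10 against the Foxo1 effect, quantile normalization 17 against the Foxa2 effect, and the added block of replicates 1 and 2 against 3 and 4 1 for the Foxa2 against the Foxo1 effect. Apart from fewer arrays or genes and stricter thresholds, the causes were not tested. Calls over all genes move with the setting too: the interaction was called for 42.4% of all genes without both doubted arrays, against 27.3%. Shares of all genes are not set beside the other counts of this section. Those counts alone do not describe the members apart from all genes. With median scaling 56.8% of all calls with DES in WT uteri were higher, against 41.5%.

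Leaving out 1 array at a time gave 15 to 25 calls for DES in WT uteri, 1 to 1 in cKO uteri, 8 to 14 for the interaction, 1 to 2 for Esr1 deletion under vehicle, 18 to 22 under DES, 1 to 3 for Foxa2, 0 to 0 for Foxo1, 5 to 18 and 12 to 17 for the Esr1 against the Foxa2 and the Foxo1 effect, and 0 to 0 between Foxa2 and Foxo1. With the replicate block the counts were 21, 1, 12, 1, 22, 2, 0, 10, 17 and 0 in this order, and none moved by over 1.5 times. The terms of that block are shared by all mouse lines, so it does not model a pairing within the Foxo1 line alone. A paired fit of the Foxo1 line was not run. Of the called members, 12 of 21 with DES in WT uteri and 15 of 22 for Esr1 deletion under DES were called at every setting with the same threshold. Eif2ak3 with DES in WT uteri turned to -0.41 with its probes averaged, the only value that reversed among 1840 unchanged and 301 weaker ones.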
